A study of Mus musculus with 4 samples.

Results

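Mouse embryonic stem (ES) cells lacking p53 were compared with p53+/+ ES cells after both had been exposed to 0.5 uM Adriamycin for 8 h. Adriamycin (doxorubicin) traps topoisomerase II on DNA and so breaks it. The comparison takes 2 of the 4 libraries of the series, the treated p53-/- and the treated p53+/+ library, and the other two are the untreated cultures of the same genotypes. All cells were of a mixed C57BL/6 and 129Sv background, at less than 20 passages, and were grown in serum with 1000 units/ml of leukemia inhibitory factor, which all groups therefore share. How the p53-/- allele was made and how many clones stand behind each genotype are not given in the sources used here, and each group is 1 library with no replicate.

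Values are FPKM, the sequenced fragments of a transcript scaled to its length and to the library's mapped fragments, summed over the transcripts of a gene. Of 22397 genes, 12897 reached 1 FPKM in either treated library and were compared, as the p53-/- minus the p53+/+ value of log2(FPKM + 1). This scale understates differences of low genes. A gene could enter through 1 library alone, the one where it was higher, which tilts counts of lists of low genes. Genes past 1 on this scale are called higher or lower. A pair of values gives the treated p53+/+ against the treated p53-/- library, and 4 values give untreated and treated p53+/+ against untreated and treated p53-/- cells. With 1 library a side there is no measure of error between cultures, so no test was run and the counts describe these libraries. In bulk RNA, fewer cells of a type and less RNA per cell cannot be told apart.

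As background, p53 is a transcription factor that is held low by the ubiquitin ligase Mdm2 and accumulates after DNA damage. It binds a response element made of a pair of adjacent decamers and switches on genes of cell cycle arrest, apoptosis, DNA repair and metabolism, together with its own inhibitors. In ES cells p53 is also known for lowering pluripotency factors and for raising Wnt ligand genes after damage.

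The aligned bases came to 4.15 gigabases in the treated p53+/+ and 3.52 gigabases in the treated p53-/- library. Both held the ES cell markers at high levels, with Pou5f1, the gene of Oct4, at 721 against 666 FPKM and Sox2 at 121 against 97.3 FPKM. Trp53 itself (chromosome 11, 69393861 to 69405375 in mm9), the gene of p53, was lower but present, at 216 (untreated) and 165 FPKM (treated) in p53+/+ and 78.6 and 76.5 FPKM in p53-/- cells. The treated p53+/+ level was 2.16-fold higher, so the p53-/- library kept 46.2% of the p53+/+ level. The deleted exons are not given in the sources used here, and a sum over whole transcripts does not show which part remained. Fibroblast markers set the genotypes apart with and without treatment. The 28 listed summed to 200.2 FPKM in treated p53+/+ and 1053 FPKM in treated p53-/- cells (273 and 1192 FPKM untreated). The treated p53+/+ sum was mostly Vim and Fn1, at 89.7 against 231 FPKM and 76.2 against 175 FPKM after treatment. Pdgfra was the only measured marker below 0, with differences of -0.67 treated and -0.76 untreated. Col3a1, Lum, Dcn, Postn, Fap and Prrx1 were listed at 0 in the treated p53+/+ library, and none of the 28 was at 0 in the p53-/- libraries. The part of fibroblast-like cells or of their genes in the differences below was not tested.

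Among the treated libraries, 1697 genes (13.2%) were lower and 875 (6.78%) higher in p53-/- cells, 19.9% in either direction. Of the genes counted, 66.0% were thus lower, or 56.4% once the libraries were quantile normalized, where the median over all genes shifted from -0.02 to 0.10. Large differences lay mostly on the lower side, with 495 genes lower and 106 higher by at least 4-fold on the FPKM + 1 scale, and 31 and 14 by at least 16-fold. The middle of the distribution was narrow, since 52.3% of genes differed by less than 0.5. Over the same genes the untreated pair gave 402 lower (3.12%) and 446 higher (3.46%). Counting error was small beside these steps in the genes where usable bounds allowed it to be read. The other called genes were not assessed this way. Among 7717 genes with a single transcript and values within their own bounds, the 95% bounds of the treated libraries lay apart for 1053 of 1053 lower and 503 of 507 higher genes. They also lay apart for 3569 of 6157 genes counted as neither, so bounds that leave out the spread between cultures separate many small differences.

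**Figure D1:**
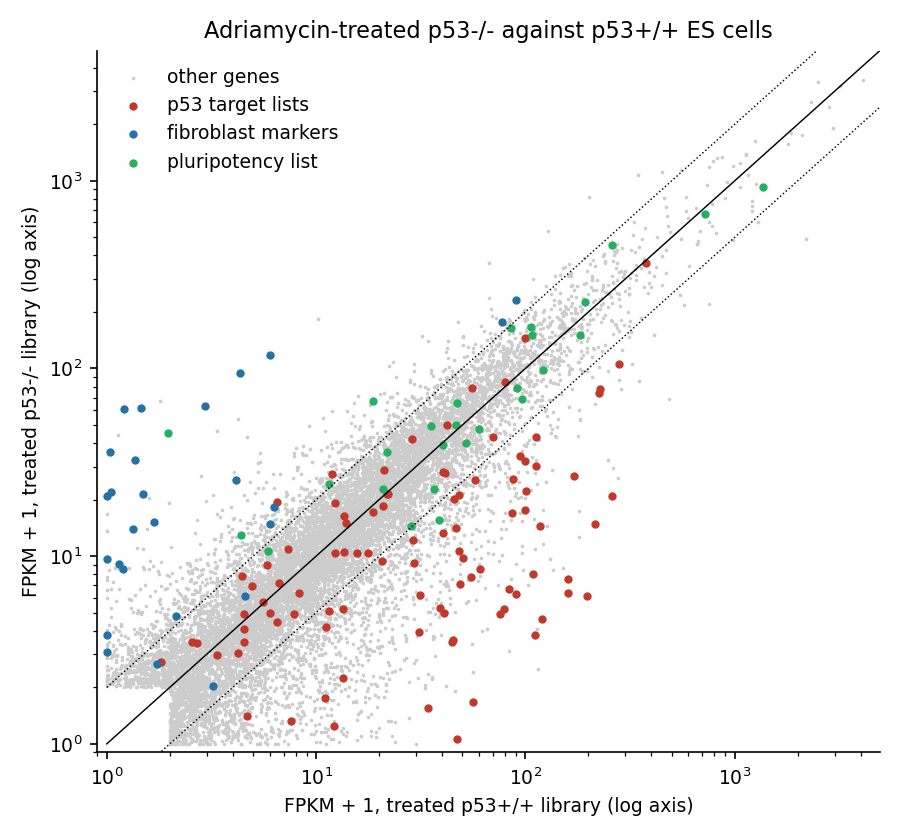
FPKM + 1 of each compared gene in the treated p53+/+ (horizontal) and treated p53-/- library (vertical), both on log axes, with equality as a solid line and a difference of 1 on the log2 scale as dotted lines. Members of the p53 target lists (red) lie mostly below the lower dotted line, fibroblast markers (blue) mostly above the upper one, and the pluripotency list (green) mostly between them.

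Known p53 targets made up many of the largest lower differences. The lists of p53 targets hold 96 measured genes, of which 55 were lower (57.3%, against 13.2% of all genes) and 2 higher, with a median difference of -1.37 against -0.02 over all genes. Without treatment 21 of the 96 were lower and 0 higher, at a median of -0.37, and each of these 21 was also lower after treatment. Another 14 were lower after treatment and within 0.5 of equal without it. Counts of every list below are read beside the all-gene shares, 6.78% higher and 13.2% lower. The lists were compiled from textbook p53 targets with earlier results of these data known.

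Of 14 feedback and modulator genes 11 were lower and 0 higher, at a median of -1.64. Mdm2, which encodes the ligase that degrades p53, was at 32.6 (untreated) and 257 FPKM (treated) in p53+/+ and 17.7 and 19.9 FPKM in p53-/- cells, so the treated p53+/+ library alone was high. Ccng1, the gene of cyclin G1, a regulator of Mdm2, was at 58.1 (untreated) and 214 FPKM (treated) in p53+/+ and 9.62 and 13.9 FPKM in p53-/- cells. Trp53inp1, whose nuclear protein promotes p53 phosphorylation, was at 27.5 and 119 against 2.01 and 3.62 FPKM, and the phosphatase gene Ptp4a3 was at 18.3 and 159 against 7.42 and 6.57 FPKM. For these members both p53-/- libraries lay below both p53+/+ libraries. Trp73 encodes the p53 relative p73. It had the largest lower difference of any gene named by size, at 46.01 against 0.0672 FPKM after treatment (-5.46) and at 1.33 and 0.0848 FPKM without it. Wrap53, which lies beside Trp53 on the opposite strand, was at 47.1 against 20.2 FPKM. As listed the genes do not overlap, with Wrap53 ending at 69392826 and Trp53 starting at 69393861. The counting was not stated to use strand, and whether reads near this boundary were mixed was not tested. Trim24, a ubiquitin ligase of p53, was close to level at 17.7 against 16.1 FPKM.

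Of 17 arrest targets 9 were lower and 2 higher (median -1.18). Plk2, a polo-like kinase, was at 8.05 (untreated) and 109.8 FPKM (treated) in p53+/+ and 1.91 and 2.79 FPKM in p53-/- cells, a 39.4-fold difference between the treated libraries. Cdkn1a, the gene of the cyclin-dependent kinase inhibitor p21, was at 26.2 (untreated) and 85.8 FPKM (treated) in p53+/+ and 17.997 and 24.6 FPKM in p53-/- cells, so untreated p53+/+ and treated p53-/- cells were nearly level. The antiproliferative gene Btg2 was at 74.4 against 3.93 FPKM, the spindle gene Psrc1 at 159 against 5.33 FPKM and Cgref1 at 39.9 against 3.97 FPKM. Plk3 and Tob1 were near level, at 19.9 against 17.6 FPKM and 20.8 against 20.5 FPKM. The 2 higher members were Gadd45b, a stress-response gene, at 10.95 against 26.3 FPKM, and Ndrg1, a differentiation and hypoxia gene, at 5.53 against 18.5 FPKM. In untreated p53+/+ cells Ndrg1 had stood at 21.4 FPKM, so the treated p53+/+ library was the low one.

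Apoptosis targets were lower in 15 of 21 cases and higher in 0 (median -1.63). They spanned both routes to cell death. Of the death receptors, Eda2r was at 12.5 (untreated) and 33.3 FPKM (treated) in p53+/+ and 0.407 and 0.550 FPKM in p53-/- cells, Fas at 0.253 and 11.2 against 0.0744 and 0.238 FPKM and Tnfrsf10b at 9.07 and 19.7 against 6.88 and 8.38 FPKM. In the mitochondrial route, the BH3-only gene Bbc3 (Puma) was at 43.5 against 2.51 FPKM, Pmaip1 (Noxa) at 47.9 against 6.12 FPKM, the pore-forming Bax at 280.1 against 105 FPKM, and Apaf1, the scaffold of the apoptosome, at 43.96 against 2.57 FPKM. Phlda3, which restrains Akt at the membrane, was at 108 against 7.06 FPKM. The BH3-only gene Bid (21.1 against 20.5 FPKM) differed by -0.04.

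Of 15 repair targets 4 were lower (26.7%, against 13.2% of all genes) and 0 higher, and the median was 0.08. Those lower were Zfp365, a replication-stress gene, at 5.76 (untreated) and 54.9 FPKM (treated) in p53+/+ and 0.381 and 0.668 FPKM in p53-/- cells, the excision nuclease Ercc5 at 38.01 against 4.27 FPKM, the translesion polymerase Polk at 12.4 against 1.25 FPKM, and Mgmt, which removes alkyl groups from guanine, at 49.6 against 8.80 FPKM. Ddb2, a damage sensor of excision repair, was at 5.65 against 6.19 FPKM. Metabolic and autophagy targets were lower in 16 of 29 cases (median -1.36). Dcxr, a sugar and carbonyl reductase, was at 18.02 (untreated) and 196 FPKM (treated) in p53+/+ and 5.601 and 5.16 FPKM in p53-/- cells, 37.9-fold apart after treatment. The epoxide hydrolase Ephx1 was at 77.6 against 4.20 FPKM, the brain-type carnitine palmitoyltransferase Cpt1c at 89.1 against 5.32 FPKM, the proline catabolic enzyme Aldh4a1 at 116 against 13.6 FPKM, and Sesn2, a stress-induced brake on mTORC1, at 98.2 against 16.7 FPKM. Gpx1 was at 375 against 365 FPKM and Tigar, a brake on glycolysis, at 12.5 against 15.3 FPKM.

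**Figure D2:**
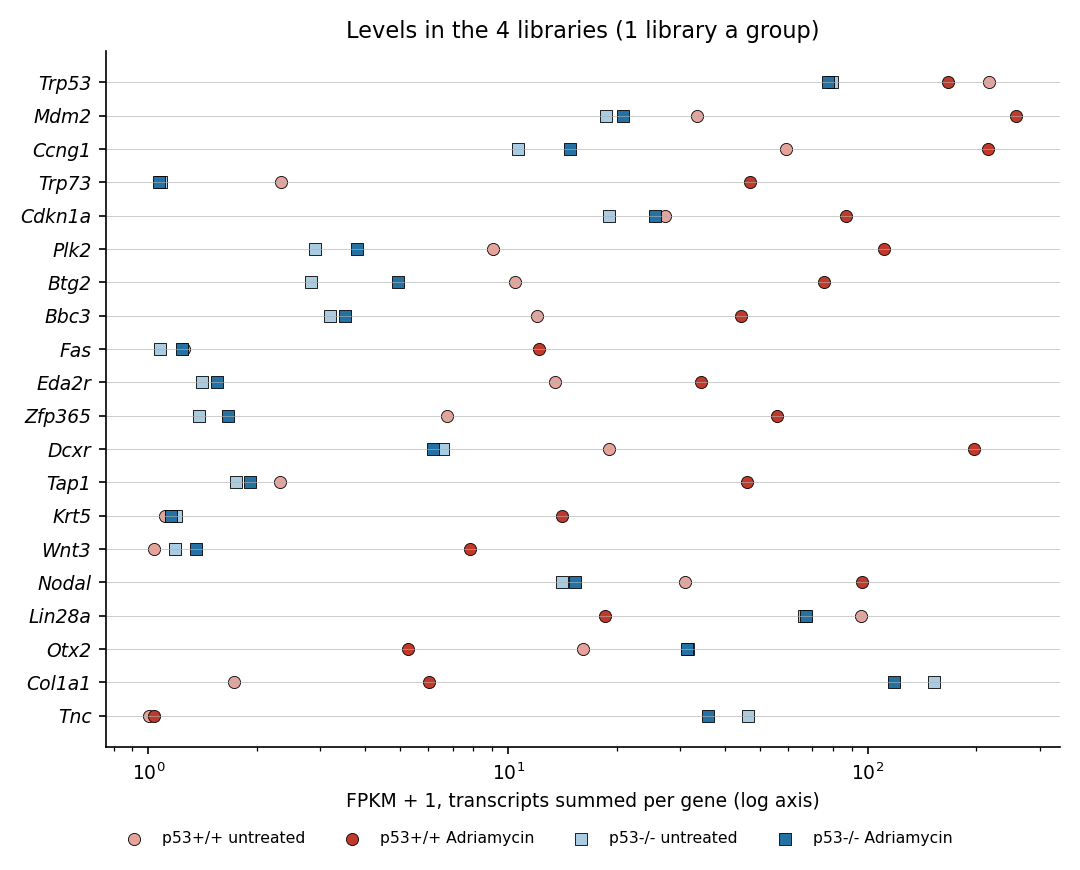
FPKM + 1 (log axis) of 20 genes in each of the 4 libraries, 1 point per library, with p53+/+ in red circles, p53-/- in blue squares and treated libraries darker. For Mdm2, Trp73, Plk2, Bbc3, Fas and Tap1 the treated p53+/+ point stands alone on the right, for Lin28a and Otx2 it stands alone on the left, and for Col1a1 and Tnc the genotypes are apart with and without treatment.

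Promoter windows of some of the genes named here were searched for a p53 response element. It was taken as a pair of decamers at most 1 base apart, with at most 2 mismatches and every C and G in place. Each decamer was of purines, then C, a pair of A or T, then G, then pyrimidines. The element reads alike on both strands. Windows ran from 250 bases before to 50 bases after the RefSeq start of each gene (GRCm38.p6). The 28 candidates were the 15 largest lower genes and those p53 list members that were lower and named by the size of their difference. Of these, 25 had a window and 3 held an element. Members named after their values were seen, such as Mdm2, Cdkn1a and Bax, were not candidates, nor were the near-level members. These 3 are shown because each gene was far lower without p53 and its promoter can be read directly, gene strand 5′ to 3′, with the element in capitals. The Trp73 window is chr4:154097124-154097423, the Zfp365 window chr10:67912613-67912912 and the Ccng1 window chr11:40755237-40755536, each on the minus strand in that build.

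Trp73: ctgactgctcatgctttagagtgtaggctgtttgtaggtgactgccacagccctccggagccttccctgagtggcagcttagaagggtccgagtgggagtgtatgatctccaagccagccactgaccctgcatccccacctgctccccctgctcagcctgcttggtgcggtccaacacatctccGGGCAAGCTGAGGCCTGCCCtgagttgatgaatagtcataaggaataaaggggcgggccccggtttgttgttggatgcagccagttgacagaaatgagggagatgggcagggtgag

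Zfp365: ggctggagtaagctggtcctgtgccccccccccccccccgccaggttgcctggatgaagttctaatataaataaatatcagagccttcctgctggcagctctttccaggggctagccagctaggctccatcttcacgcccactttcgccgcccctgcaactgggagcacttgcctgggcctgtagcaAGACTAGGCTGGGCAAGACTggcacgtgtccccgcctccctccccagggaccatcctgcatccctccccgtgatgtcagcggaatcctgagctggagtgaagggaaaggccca

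Ccng1: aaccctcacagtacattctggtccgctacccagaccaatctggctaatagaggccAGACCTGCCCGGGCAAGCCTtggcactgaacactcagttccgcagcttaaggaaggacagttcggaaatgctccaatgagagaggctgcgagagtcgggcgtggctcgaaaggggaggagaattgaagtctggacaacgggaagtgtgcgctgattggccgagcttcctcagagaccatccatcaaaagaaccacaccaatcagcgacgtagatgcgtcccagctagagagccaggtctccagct

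The element lay 66 to 47 bases before the start in Trp73, 63 to 44 bases before it in Zfp365 and 195 to 176 bases before it in Ccng1, with 2, 2 and 1 mismatches. Trp73 has another window in the table, in which none was found. Among all genes compared that have a window, 103 of 10307 (0.999%) held an element. The share was 35 of 1352 (2.59%) among lower genes, 6 of 673 (0.892%) among higher genes, 7 of 49 (14.3%) among lower members of the p53 lists, and 0.807% over all 27025 genes with a window. A match is a description of letters, and windows of 300 bases leave out introns and distant sites.

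Lower genes outside the p53 lists included several groups. Wnt ligands, secreted signals that maintain self-renewal or drive mesoderm fate, were lower in 8 of 11 cases (72.7%, against 13.2% of all genes) and higher in 1 (median -1.58, or -0.01 without treatment). Of the 19 ligands listed, 10 reached 1 FPKM in treated p53+/+ and 3 in treated p53-/- cells. Most of the 11 thus entered only through the library where they were high, and the filter itself favours a lower count. With a pseudocount of 5 FPKM 3 were lower, with a filter of 5 FPKM 4, and with a pseudocount of 0.1 FPKM the median was -3.14. Wnt3 was at 0.0374 (untreated) and 6.82 FPKM (treated) in p53+/+ and 0.182 and 0.360 FPKM in p53-/- cells, with 95% bounds of 5.96 to 7.40 and 0.225 to 0.491 FPKM in the treated pair. Wnt9a was at 0.582 and 10.5 against 0.572 and 1.11 FPKM and Wnt8b at 0.114 and 4.39 against 0 and 0.0138 FPKM, and Wnt3a at 5.37 against 0.360 FPKM after treatment. Wnt6 was at 10.2 against 0.421 FPKM. The treated p53+/+ library was the high one for each of these 5 ligands. Wnt5a, the higher member, was at 0.267 against 2.12 FPKM and at 0.247 and 2.31 FPKM without treatment.

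Nodal, the TGF-beta family ligand of early embryos, was lower at 30.03 (untreated) and 94.9 FPKM (treated) in p53+/+ and 13.1 and 14.3 FPKM in p53-/- cells, and Bmp7 at 16.6 against 2.18 FPKM. Of the 16 genes of their list, these 2 were lower (12.5%, near the 13.2% of all genes) and 3 higher (18.8%, against 6.78%), at a median of 0.04. The higher ones were Bmp4 at 4.10 against 10.8 FPKM, the Nodal inhibitor Lefty2 at 21.4 against 102 FPKM and the BMP inhibitor Grem1 at 0.0260 against 7.40 FPKM. Lefty1, another Nodal inhibitor, was at 126 against 118 FPKM, and at 34.3 and 94.7 FPKM without treatment, so it was apart only in the untreated pair.

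Of 16 antigen presentation genes 7 were higher (43.8%, against 6.78% of all genes) and 3 lower (18.8%, against 13.2%), at a median of 0.87, or 0.77 without treatment. The higher count was 4 with a pseudocount of 5 FPKM. Tap1, the peptide transporter subunit, was at 1.32 (untreated) and 45.01 FPKM (treated) in p53+/+ and 0.753 and 0.922 FPKM in p53-/- cells. Psmb9, an immunoproteasome subunit encoded beside Tap1, was at 3.09 and 13.3 against 5.25 and 4.03 FPKM, and Nlrc5, a transactivator of class I genes, at 0.0647 and 2.82 against 0.100 and 0.0972 FPKM. These 3 were lower after treatment and not without it. The subunit gene Psmb8 was opposite, at 0.106 and 0.109 against 5.73 and 4.78 FPKM, and so were Psmb10 at 8.59 and 7.01 against 38.5 and 36.9 FPKM, the light chain B2m at 8.55 and 10.2 against 28.9 and 37.3 FPKM, the heavy chain H2-K1 at 13.5 and 11.7 against 32.7 and 35.1 FPKM, and the transcription factor Irf1 at 16.3 and 8.21 against 43.7 and 48.2 FPKM. For these higher members both p53-/- libraries lay above both p53+/+ libraries. Heavy chain genes resemble one another closely, so their values are uncertain. Of 18 interferon and NF-kB genes, 2 were lower and 4 higher (median 0.13), with the RNA sensor Ddx58 at 1.48 against 8.19 FPKM.

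Epithelial and keratin genes were lower in 5 of 19 cases and higher in 6 (median 0.37), or 3 and 3 with a pseudocount of 5 FPKM. Krt5, a keratin of basal epidermis, was at 0.109 (untreated) and 13.1 FPKM (treated) in p53+/+ and 0.193 and 0.154 FPKM in p53-/- cells, and Evpl, the gene of envoplakin, at 1.24 and 14.8 against 1.36 and 1.65 FPKM. The simple-epithelium genes Krt18 (10.8 against 29.2 FPKM after treatment) and Cldn7 (5.22 against 26.6 FPKM) were higher, and Krt19 was at 28.3 against 36.9 FPKM. Among AP-1 factors (2 of 9 lower, 2 higher, median 0.34), Fosl1 was at 0.0811 (untreated) and 18.2 FPKM (treated) in p53+/+ and 0.821 and 1.09 FPKM in p53-/- cells and Fos at 12.7 against 4.29 FPKM, while Fosl2 (0.653 against 2.82 FPKM) and Maff (3.16 against 9.23 FPKM) were higher and Jun was close, at 6.56 against 5.79 FPKM. Immediate early genes had 1 of 15 lower, Dusp2 at 8.24 against 1.66 FPKM, and 3 higher, Zfp36, Ccn2 and Ier3 (median 0.01). Egr1, at 20.7 against 20.8 FPKM, and Dusp1, at 34.2 against 34.3 FPKM, were level between the treated genotypes.

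Genes of the 2-cell-like state, a rare state of ES cultures that resembles the early embryo, were lower in 14 of 14 cases (median -2.58, or -1.57 with 11 lower in the untreated pair). Duxf3, a copy of the Dux factor that starts the state, was at 3.04 (untreated) and 20.5 FPKM (treated) in p53+/+ and 0.868 and 1.05 FPKM in p53-/- cells, and Zscan4a at 91.4 and 129.6 against 9.15 and 8.62 FPKM. The Zscan4, Tdpoz and Usp17l copies are near-identical, so the split of reads between them is uncertain. Of 18 primitive endoderm markers listed, 15 reached 1 FPKM in treated p53+/+ and 9 in treated p53-/- cells, so some entered only through the p53+/+ library. Primitive endoderm markers were lower in 10 of 15 cases and higher in 0 (median -1.52, or -1.20 untreated), though in 2 with a pseudocount of 5 FPKM and 6 with a filter of 5 FPKM. They included the factors Gata6 (3.94 and 4.74 against 0.531 and 0.423 FPKM) and Hnf4a (1.53 and 4.18 against 0.105 and 0.116 FPKM), the laminin chain Lama1 (35.7 and 28.9 against 9.28 and 6.995 FPKM) and the endocytic receptor Cubn (4.41 and 4.69 against 0.139 and 0.134 FPKM). For Gata6, Hnf4a, Lama1 and Cubn both p53-/- libraries were the low ones. The list summed to 442 FPKM in treated p53+/+ and 337 FPKM in treated p53-/- cells, where Ttr was listed at 0. Sparc, the most abundant member of these sums, was the only measured one above 0, at 151 and 172 against 192 and 204 FPKM.

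Of 11 topoisomerase and efflux genes 3 were lower (27.3%, against 13.2% of all genes) and 0 higher, at a median of 0.00. The efflux pump genes Abcb1b and Abcb1a, which export doxorubicin, were at 7.40 (untreated) and 42.5 FPKM (treated) in p53+/+ and 4.38 and 5.01 FPKM in p53-/- cells and at 6.55 and 10.2 against 3.28 and 3.21 FPKM, and Top3b at 73.8 against 29.3 FPKM. Top2a, the drug's target in cycling cells, was at 102 against 195 FPKM, Top1 at 25.9 against 25.3 FPKM and the DNA-end repair gene Tdp1 at 17.9 against 18.01 FPKM.

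Other lower genes among the 15 largest were Eng, an endothelial TGF-beta coreceptor, at 21.3 (untreated) and 113 FPKM (treated) in p53+/+ and 2.91 and 3.10 FPKM in p53-/- cells, Rtkn at 82.6 against 2.14 FPKM, Matn1, a cartilage matrix protein gene, at 22.7 against 0.0242 FPKM, the phosphatase gene Ptpn14 at 54.96 against 1.43 FPKM, the leukotriene receptor gene Ltb4r2 at 22.02 against 0.106 FPKM, and Ddit4l, an inhibitor of mTORC1, at 40.9 against 1.02 FPKM. Their differences ran from -4.79 (Eng) to -4.37 (Ddit4l). Eng stands in the list of blood and endothelium markers, where 4 of 7 were lower and 0 higher, namely Eng, Laptm5 (72.95 against 5.98 FPKM), Tek and Hba-a1, with Pecam1 at 17.97 against 33.1 FPKM. Ptprc and Tyrobp, which define blood cells, were listed at 0 in both treated libraries. Hbb-bh1 and Lyz2 were at 0 in the treated p53+/+ library and above 0, though below 1 FPKM, in the treated p53-/- library. All of these were at 0 in untreated p53+/+ cells, and none was at 0 in untreated p53-/- cells.

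On the cell cycle, the pocket protein genes Rb1 and Rbl2, which restrain E2F, were lower, at 3.998 (untreated) and 21.3 FPKM (treated) in p53+/+ and 0.677 and 1.21 FPKM in p53-/- cells and at 1.71 and 12.1 against 1.24 and 1.61 FPKM. Rbl1, the third member of that family, was at 6.54 against 7.16 FPKM. In the G1/S list as a whole 2 of 20 were lower, 5 higher (25%, against 6.78% of all genes) and 13 neither, at a median of 0.13. The cyclin genes Ccne1 (49.3 against 133 FPKM), Ccnd1 (11.5 against 39.8 FPKM) and Ccnd2 (1.55 against 7.16 FPKM) and the kinase gene Cdk6 (1.56 against 7.43 FPKM) were lowest in the treated p53+/+ library among the 4. Cdkn2a, which encodes p16 and the Mdm2 inhibitor Arf, was at 10.4 (untreated) and 10.97 FPKM (treated) in p53+/+ and 60.5 and 58.3 FPKM in p53-/- cells, high in both p53-/- libraries. Of 25 G2/M genes 2 were lower, cyclin F (Ccnf, 139.95 against 47.9 FPKM) and the kinesin gene Cenpe (13.1 against 5.01 FPKM), and 0 higher (median -0.26, or -0.43 untreated). Replication genes had 0 of 23 past 1 in either direction (median 0.35, or -0.11 untreated), though Mcm7 at 138 against 69.8 FPKM and Mcm5 at 159 against 308 FPKM lay near it. Checkpoint and break repair genes had 0 of 26 lower and 1 higher, Trp53bp1 at 5.20 against 11.5 FPKM (median 0.06), with Atr at 10.7 against 10.9 FPKM.

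The pluripotency list was near level after treatment, with 4 of 27 higher and 1 lower (median 0.11), against a median of -0.58 in the untreated pair. Lin28a, whose protein blocks let-7 maturation, was at 94.8 (untreated) and 17.6 FPKM (treated) in p53+/+ and 65.6 and 66.4 FPKM in p53-/- cells, Prdm14, a repressor of differentiation, at 18.9 and 3.38 against 11.99 and 11.99 FPKM and Nr0b1 at 58.1 and 10.6 against 32.5 and 23.2 FPKM. For these 3 genes the p53-/- library was below p53+/+ without treatment and above it with treatment, and the treated p53+/+ value was the lowest of the 4. Dppa3, a germline and naive-state gene, was high in both p53-/- libraries, at 2.45 and 0.956 against 35.996 and 44.6 FPKM. Tbx3 was the lower member, at 48.6 and 37.7 against 16.2 and 14.5 FPKM. Nanog was at 310.01 and 105 against 194 and 166 FPKM, a difference of 0.65 after and -0.67 without treatment, and Zfp42 (Rex1) at 84.7 against 164 FPKM after treatment. Nanog, Zfp42, Pou5f1 and Sox2 were looked up as ES markers and not by size.

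The lists of LIF and STAT3 genes and of FGF and ERK feedback genes included members in both directions. In the LIF and STAT3 list 3 of 13 were higher, the NF-kB cofactor gene Bcl3 (34.3 and 7.96 against 39.7 and 33.6 FPKM), the feedback gene Socs2 (16.8 and 5.42 against 15.7 and 16.3 FPKM) and the coreceptor gene Il6st (18.8 and 6.58 against 15.6 and 15.4 FPKM), and Lif itself was lower at 0.545 and 3.62 against 0.523 and 0.839 FPKM (median 0.43). Socs3 was at 65.7 against 70.2 FPKM. In the FGF list 3 of 16 were higher, Fgf17 (12.6 and 1.64 against 13.9 and 12.2 FPKM), Fgf15 (12.4 and 3.69 against 8.86 and 10.6 FPKM) and Dusp4, and the receptor gene Fgfr4 was lower at 2.06 and 16.4 against 1.49 and 2.02 FPKM (median 0.26). Treated p53+/+ cells held the lowest of the 4 values for Bcl3, Socs2, Il6st, Fgf17 and Fgf15. The ERK feedback genes Dusp6 (14.6 against 14.4 FPKM) and Etv4 (46.5 against 44.2 FPKM) were close to level.

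Epiblast and neural genes were higher in 8 of 12 cases and lower in 0 (median 1.60, or 0.92 with 4 higher untreated). Otx2, a factor of the primed epiblast, was at 15.1 (untreated) and 4.28 FPKM (treated) in p53+/+ and 30.6 and 30.5 FPKM in p53-/- cells. The zinc-finger genes Zic2 (6.01 and 0.993 against 23.3 and 18.2 FPKM) and Zic5 (4.17 and 0.758 against 9.25 and 7.34 FPKM), the neural tubulin gene Tubb3 (62.2 and 33.2 against 115 and 139 FPKM) and the intermediate filament gene Nes (0.675 and 0.612 against 8.85 and 8.39 FPKM) were also higher. For Otx2, Zic2, Zic5 and Tubb3 the treated p53+/+ library was the lowest of the 4, while Nes was level within each genotype. Mesendoderm genes had 2 of 5 lower, Mesp1 (3.39 against 0.348 FPKM) and Sox17, and 2 higher, Eomes and Hand1. Trophoblast markers were higher in 5 of 10 cases (median 0.89, or 1.04 untreated), led by Esx1 at 1.04 and 0.401 against 11.6 and 10.01 FPKM, while Prl3d1 and Tpbpa, which define mature trophoblast, were listed at 0 in both treated libraries. Of 7 muscle and heart genes, Des (41.9 against 9.17 FPKM) and Myl2 were lower and Actc1 higher. Of 4 neuronal genes, Neurod1 (12.5 against 0.209 FPKM) was lower and Tubb3 higher. Of 3 Hox genes measured, Hoxc13 was lower, at 5.12 against 0.235 FPKM.

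**Figure D3:**
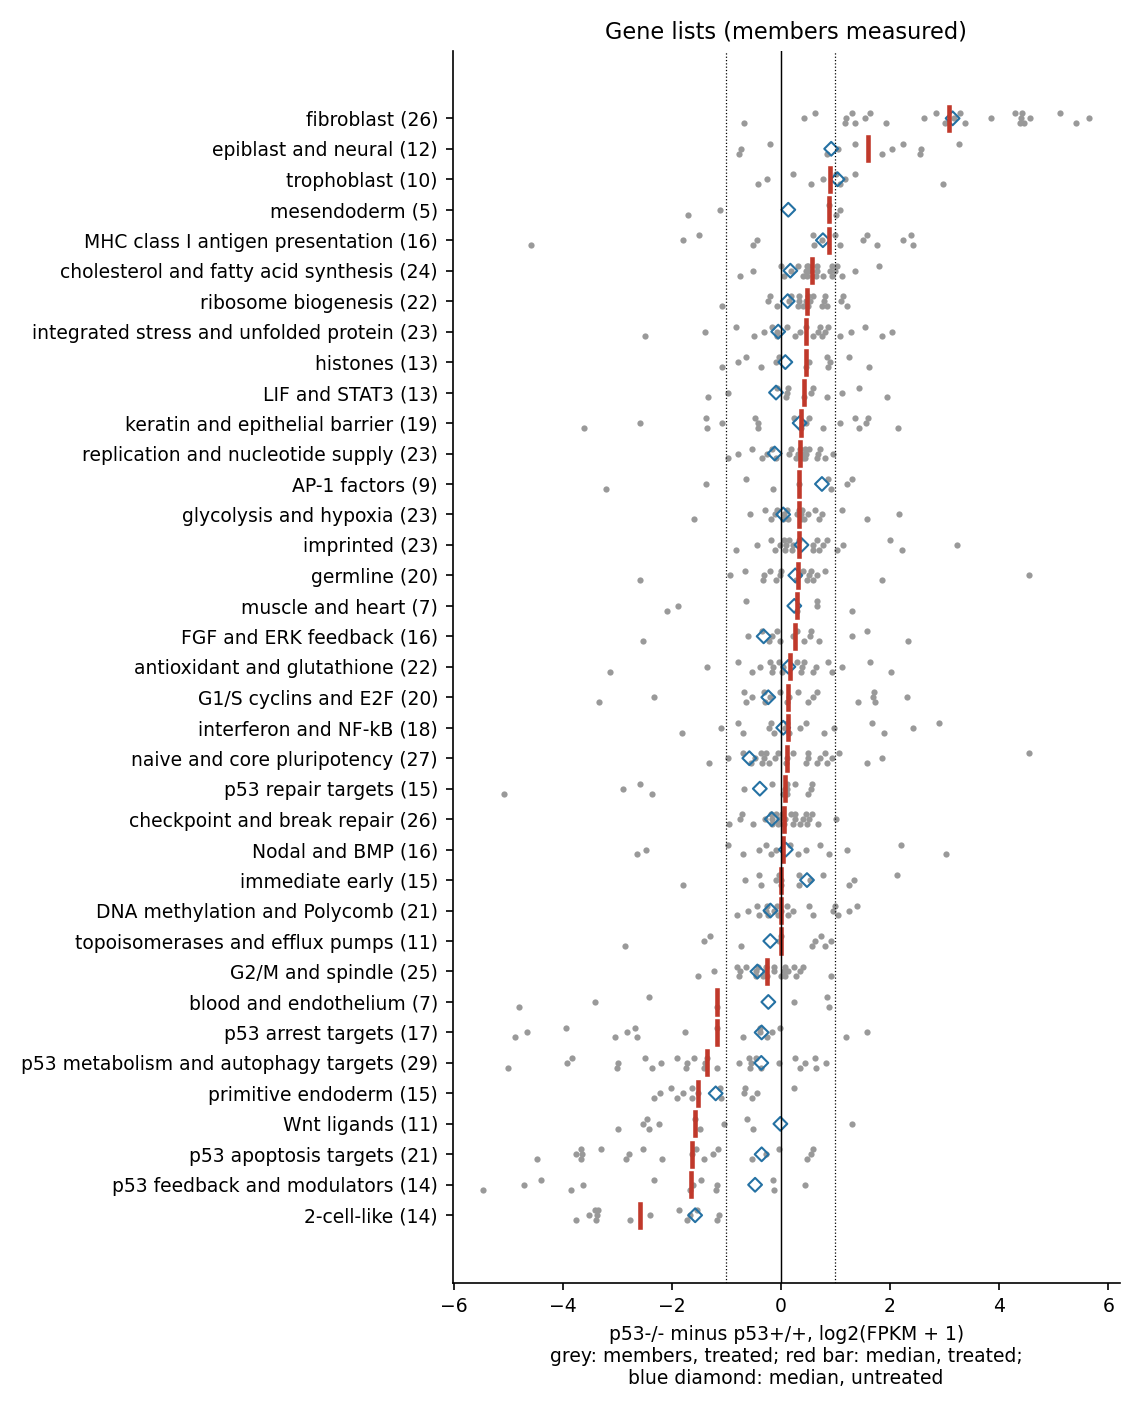
Differences (p53-/- minus p53+/+, log2 of FPKM + 1) of the members of each gene list with at least 5 measured members, as grey points, with the treated median as a red bar and the untreated median as a blue diamond; dotted lines mark a difference of 1. The 2-cell-like, p53 feedback, p53 apoptosis and Wnt lists have the lowest treated medians and the fibroblast list the highest, and the Wnt, p53 feedback and p53 apoptosis lists have their untreated medians nearer 0 than their treated ones.

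The higher side was led by the extracellular matrix. Fibroblast markers were higher in 23 of 26 cases and lower in 0, at a median of 3.08, and in the untreated pair 22 were higher at a median of 3.15. Of the 28 listed, 26 reached 1 FPKM in treated p53-/- and 11 in treated p53+/+ cells. Many thus entered only through the library where they were high, and the filter itself favours a higher count. With a pseudocount of 0.1 FPKM the treated median was 4.74 and 1 marker was lower. Col1a2 was at 0.169 (untreated) and 0.206 FPKM (treated) in p53+/+ and 69.7 and 59.8 FPKM in p53-/- cells, Tnc, the gene of tenascin C, at 0.00527 and 0.0383 against 45.5 and 34.99 FPKM, the collagen crosslinking enzyme Lox at 0.0640 and 0.0443 against 21.3 and 21.02 FPKM and the calcium-binding S100a4 at 0.239 and 0.361 against 30.1 and 31.4 FPKM. Col3a1 and the matrix protease gene Mmp3 were listed at 0 in both p53+/+ libraries, against 19.9 and 15.9 FPKM in treated p53-/- cells. For Col1a1 the treated difference was smaller than the untreated one, 4.30 against 6.46, with 0.727 and 5.03 against 151 and 117 FPKM. Bgn (3.31 against 93.6 FPKM), Thbs1 (1.95 against 62.2 FPKM), Mgp (0.456 against 60.7 FPKM) and Col6a1 (0.489 against 20.5 FPKM) completed this group among the 15 largest higher genes.

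Another 3 of the 15 largest higher genes were copies of other genes. The sperm aldolase copies Aldoart2 and Aldoart1 were at 0.121 (untreated) and 0.126 FPKM (treated) in p53+/+ and 0.128 and 43.1 FPKM in p53-/- cells and at 1.49 and 0.791 against 1.40 and 66.3 FPKM, and Rps15a-ps4, a copy of a ribosomal protein gene, at 34.8 and 9.18 against 18.8 and 183 FPKM. The treated p53-/- library was the highest of the 4 for each. Reads of near-identical copies cannot be assigned with certainty, so these values are uncertain. Genes made of 1 block, which include such copies, were 3.05% of all genes compared, 5.14% of the higher genes and 7.35% of the higher genes whose untreated difference was within 0.5.

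Cholesterol and fatty acid synthesis genes were above 0 in 22 of 24 cases, against 48.9% of all genes, with 4 past 1 (16.7%, against 6.78%) and 0 lower (median 0.57, or 0.17 untreated). The 4 were the desaturase gene Scd1 (29.7 and 9.58 against 33.4 and 35.8 FPKM), the fatty acid synthase gene Fasn (87.5 and 71.2 against 178 and 184 FPKM), Mvd (25.7 against 56.99 FPKM) and Dhcr7 (33.4 against 69.3 FPKM), while the regulators Srebf1 (51.9 against 52.1 FPKM) and Srebf2 (82.03 against 85.2 FPKM) were level after treatment. Ribosome biogenesis genes were above 0 in 18 of 22 cases, with 3 higher (13.6%), Polr1b (23.3 against 55.1 FPKM), Nop58 (54.9 against 122 FPKM) and Nop56 (79.1 against 171 FPKM), and 1 lower, Utp20 (49.5 against 22.9 FPKM), at a median of 0.47. Glycolysis and hypoxia genes had 3 of 23 higher (13.04%), Ankrd37 (7.63 against 37.8 FPKM), Ndrg1 and Hk2 (43.5 against 95.6 FPKM), and 1 lower, the mTORC1 inhibitor gene Ddit4 (68.5 and 223 against 102 and 73.2 FPKM), at a median of 0.34. Stress-response genes had 5 of 23 higher, among them Chac1 (4.57 against 21.9 FPKM), Slc7a3 (79.8 and 19.1 against 77.1 and 71.7 FPKM) and Herpud1, and 2 lower, Sesn2 and Cth (median 0.45). In the antioxidant list the secreted peroxidase gene Gpx3 was lower at 18.6 and 125 against 14.3 and 13.5 FPKM, the sulfiredoxin gene Srxn1 at 20.96 against 7.63 FPKM, and the metallothionein genes Mt1 (345 and 344 against 1232 and 1072 FPKM) and Mt2 (336 and 199.9 against 894 and 817 FPKM) were higher. Of 22 antioxidant genes 2 were lower and 3 higher, the third being Gpx4 (125 against 273 FPKM), at a median of 0.17.

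Of 21 DNA methylation and Polycomb genes 3 were higher and 0 lower (median 0.01), the methyltransferase genes Dnmt3a (14.8 and 6.69 against 20.4 and 19.1 FPKM) and Dnmt3b (46.96 and 25.5 against 60.7 and 53.6 FPKM) and the Polycomb gene Suz12 (53.97 and 28.2 against 62.9 and 68.6 FPKM), with Pcgf2 just short of 1. Tet2 was at 10.4 against 9.94 FPKM and Rnf2 at 29.2 against 29.4 FPKM. Imprinted genes were higher in 5 of 23 cases and lower in 0 (median 0.33). Igf2 was at 1.795 and 1.83 against 27.5 and 25.7 FPKM, high in both p53-/- libraries, whereas Mest (24.9 and 8.34 against 32.6 and 36.3 FPKM), Phlda2 (56.9 and 22.4 against 103 and 107 FPKM) and Peg10 (107 and 32.7 against 108 and 73.4 FPKM) had their lowest value in treated p53+/+ cells. Histone genes had 1 of 13 lower, H2ax at 357 and 312 against 248 and 146 FPKM, and 2 higher (median 0.45). The higher ones were H1f2 (2.01 against 8.18 FPKM after treatment) and H4c8 (3.55 against 9.76 FPKM), and 0 were higher with a pseudocount of 5 FPKM. How fully poly(A) libraries hold histone transcripts was not tested. Germline genes had 1 of 20 lower, the meiotic Hormad1 at 5.03 and 18.5 against 2.19 and 2.26 FPKM, and 2 higher, Dppa3 and Xlr3a (median 0.31).

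The treated and untreated genotype comparisons share no library, so they can be set side by side. Across the 12897 genes, which are not replicates, the differences correlated with Pearson's r at 0.58 and Spearman's coefficient at 0.52, given as a description. Of the 1697 lower genes, 263 (15.5%) were also lower by at least 1 without treatment, 421 (24.8%) lay between 0.5 and 1 on the lower side, 971 (57.2%) were within 0.5 of equal, and 42 (2.47%) were opposite by more than 0.5. Of the 875 higher genes, 276 (31.5%) were also higher by at least 1, 271 (31.0%) lay between, 313 (35.8%) were within 0.5, and 15 (1.71%) were opposite. The 263 make up 65.4% of the genes lower in the untreated pair and the 276 make up 61.9% of those higher in it. Genes past 1 in opposite directions numbered 4 each way. Without treatment, the 971 lower genes within 0.5 had a median of 1.61 FPKM with p53 and 1.40 FPKM without it. At such levels the scale understates differences, so the 57.2% is not a share of genes with equal untreated levels.

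Each class was then read by its leading genes. Lower genes within 0.5 of equal without treatment were led by Tap1 and Matn1, then Cpz, a carboxypeptidase gene, at 0.643 and 22.9 against 0.268 and 0.310 FPKM, Apol8 at 0.266 and 21.8 against 0.176 and 0.320 FPKM and the sodium channel subunit gene Scn3b at 0.646 and 21.1 against 0.171 and 0.321 FPKM. Between the classes stood Ltb4r2, Nkx2-9 (1.44 and 26.8 against 0.452 and 0.372 FPKM), the transporter gene Slc4a11 (10.2 and 149.8 against 5.67 and 7.63 FPKM), Hyal1 (2.55 and 34.8 against 0.779 and 1.28 FPKM) and Azin2 (7.18 and 61.3 against 4.05 and 3.002 FPKM). In each of these the treated p53+/+ library was far above the other three. For genes this low, lying within 0.5 on this scale without treatment does not mean equal levels. Untreated Matn1 was at 0.443 FPKM with p53 and 0.0266 FPKM without it. Its bounds lay apart, at 0.273 to 0.618 FPKM and 0 to 0.0727 FPKM, while the untreated bounds of Cpz and of Apol8 overlapped. Lower genes already lower by 1 without treatment were led by Trp73, Zfp365, Dcxr, Plk2 and Eng. Higher genes already apart were led by Col1a2, Mgp, Tnc, S100a4 and Dppa3. Higher genes within 0.5 untreated were led by the aldolase copies, Csl (3.53 and 3.66 against 5.36 and 42.3 FPKM) and Acot10 (5.96 and 3.05 against 6.41 and 27.01 FPKM), in which treated p53-/- cells were high, and by Emp1 (23.1 and 2.21 against 23.5 and 20.2 FPKM), in which treated p53+/+ cells were low. Between them stood Pnp2 (1.62 and 2.35 against 2.83 and 45.4 FPKM), Tubg2 (0.437 and 0.594 against 1.06 and 19.3 FPKM), Otx2, Ccl25 and Spp1, the gene of osteopontin (214 and 66.3 against 353 and 364 FPKM). Acot10, Csl, Pnp2 and Tubg2 have close relatives in the genome, so their values are uncertain.

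**Figure D4:**
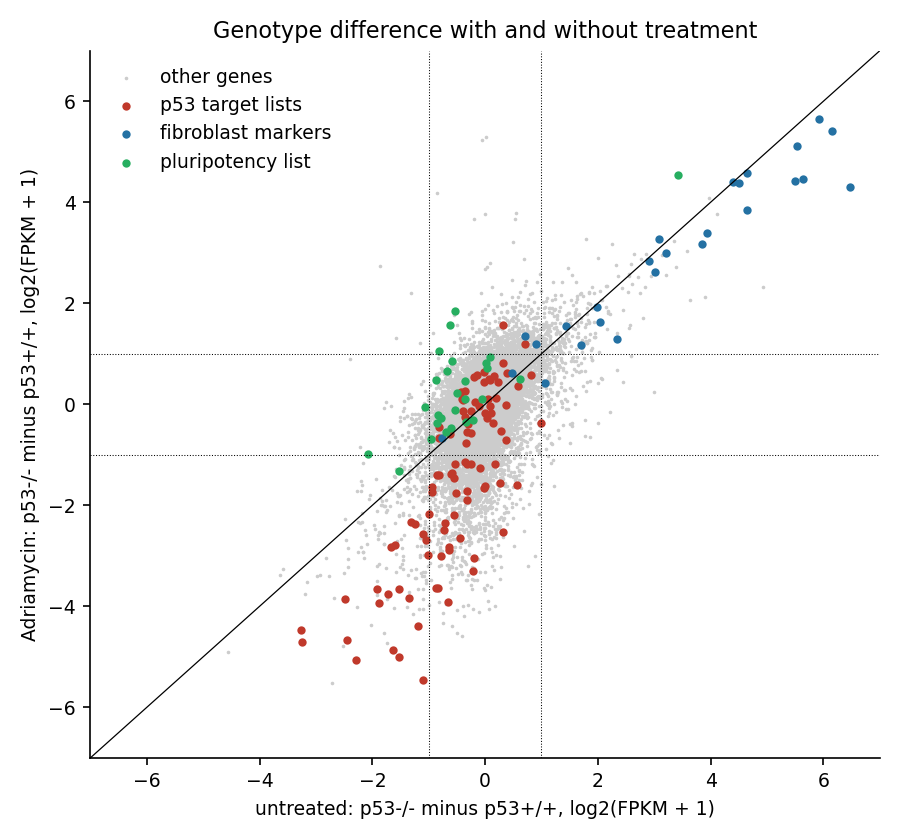
Genotype difference (p53-/- minus p53+/+, log2 of FPKM + 1) of each compared gene in the untreated pair (horizontal) and the treated pair (vertical), with equality as a solid line and differences of 1 dotted. Of the 96 p53 target list members (red), 55 pass -1 when treated and 21 when untreated, and fibroblast markers (blue) lie along the diagonal.

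Genes on chromosomes 8 and 11 were shifted upward in p53-/- cells in both pairs. The median difference was 0.37 on chromosome 8 (696 genes whose transcripts all lie there) and 0.32 on chromosome 11 (1107 genes) after treatment, and 0.40 and 0.29 without it. On chromosome X it was 0.25 after treatment and -0.06 without. On the other 17 chromosomes it lay between -0.17 and 0.09 treated and between -0.14 and -0.04 untreated. Each of 6 blocks of equal gene number along chromosome 8, and each of 6 along chromosome 11, had a median above 0 in both pairs. Higher genes were 15.7% of chromosome 8, 12.9% of chromosome 11 and 13.7% of chromosome X, against 6.78% of all genes. Without chromosomes 8 and 11, 623 genes were higher and 1526 lower. The 20 nearest measured genes around Trp53, which lies on chromosome 11, had a median of 0.36 treated and -0.02 untreated. Copy number was not measured, and its part in these shifts was not tested.

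**Figure D5:**
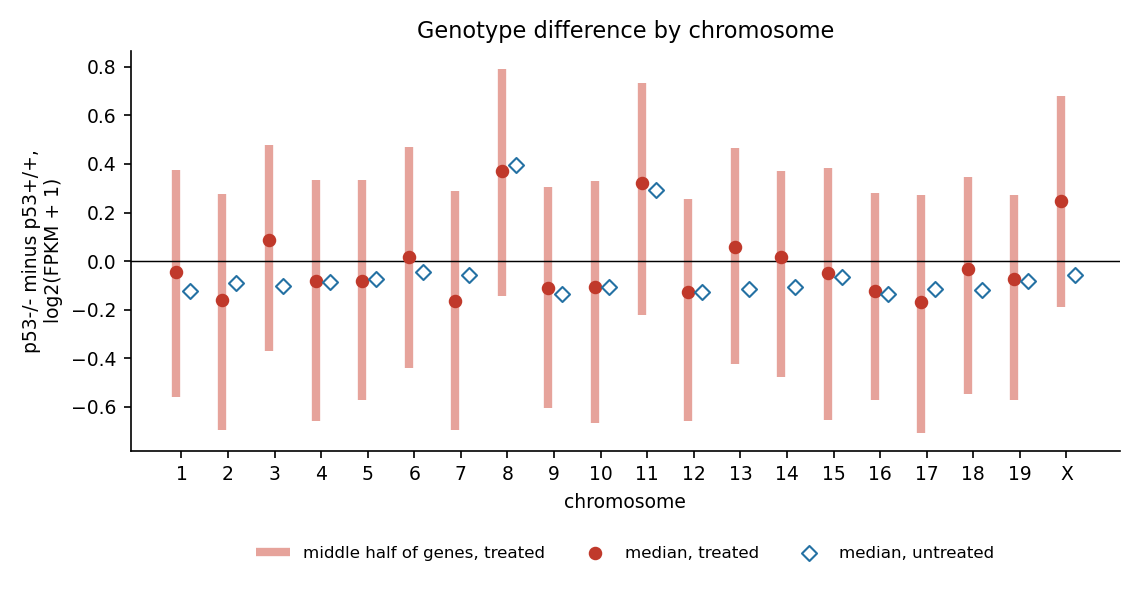
Median genotype difference (p53-/- minus p53+/+, log2 of FPKM + 1) on each chromosome in the treated pair (red points, with bars from the first to the third quartile of genes) and the untreated pair (open diamonds). Chromosomes 8 and 11 stand above the rest in both pairs (0.37 and 0.32 treated), and chromosome X only in the treated one (0.25).

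The series concerns Apela, an RNA and peptide gene tied to p53 in ES cells. Its row was given no gene name, so it was identified by position (chromosome 8, 67552316 to 67561235 in mm9). The span of 8920 bases and the gap of 9728 bases to Trim61 equal those of Apela in GRCm38. Apela is named as the subject of the series. It was at 12.2 and 2.202 against 19.02 and 18.7 FPKM, a difference of 2.62 after and 0.60 without treatment. The treated p53+/+ library was the low one. Of the 4 values only that one lies within its own bounds (1.36 to 2.91 FPKM). Hnrnpl, whose protein has been tied to Apela and p53, was near level at 172 against 178 FPKM.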

How the data were processed

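Poly(A) RNA of 4 libraries, 1 per group, was analysed. The authors deposited a Cufflinks-style transcript table per library with FPKM, 95% bounds, read coverage, length, position and status, per the file headers. Coverage is a signal the authors computed and was used here, times length, for the aligned bases. The submitters' processing notes name CASAVA 1.8.1, TopHat2 2.0.5, TopHat, Cufflinks and mm9, with no role or order. An exome enrichment kit is named too, per the labels' protocols, and could alter which transcripts the libraries hold. As FPKM is no count, count models were not used.

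Of 30769 rows, 30223 were named from a RefSeq table and 184 from GENCODE M21 (both GRCm38, used for names, promoter windows and the place of Apela), and 362 were not named; 818 rows of short RNAs were left out. Positions are mm9, with starts counted from 1. FPKM were summed per gene, and genes at 1 FPKM or more in either treated library were compared with a pseudocount of 1 FPKM.

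The members and the 41 gene lists were chosen with earlier results of these data known. Genes were named by rule: Trp53; the 15 largest differences each way among genes at 5 FPKM or more with status OK; per list up to 4 largest and 2 smallest differences; and the 5 largest of each class of the split. Mdm2, Cdkn1a, Gadd45b, Fas, Tnfrsf10b, Pmaip1, Bax, Wnt5a, Bmp4, Psmb9, Nlrc5, B2m, H2-K1, Ccne1, Ccnd1, Ccnd2, Nr0b1, Gpx4 and Cth were chosen after their values were seen. A few genes chosen this way are not reported here. Bounds cover counting and assignment error; in each library 1525 to 2036 rows lay above their own upper bound, so bounds were used only where they hold the FPKM. Alternatives were other pseudocounts, filters, steps, scalings, the main transcript alone, status, centring by chromosome, and leaving out 1-block genes or chromosomes 8 and 11; the last 3 were added after seeing the data. Calculations ran in Python 3.11.15 (numpy 2.4.6, pandas 2.3.3, scipy 1.17.1; matplotlib 3.10.9 for plots). The calculation was tested on simulated data of 12290 genes with an assumed noise SD of 0.15 on the log2 scale. Genes at 5 FPKM or more were changed 4-fold, and 100 of 100 raised, 100 of 100 lowered and 0 unchanged ones were counted. With noise set this small beside the step, this checks the code only. It does not measure false calls between cultures.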

Additional observations from a re-analysis of the deposited data

Results flagged for a closer look

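For 10 genes named in the split by the untreated pair, the genotype difference after treatment was opposite to that without it in the libraries compared; the change of direction was not tested, and each value rests on 1 library a group. On the higher side these were Rps15a-ps4 (4.18 treated, -0.86 untreated), Lin28a (1.86 and -0.53), Prdm14 (1.57 and -0.62), Zfp982 (1.42 and -0.92) and Eras (1.23 and -0.55), an ES cell Ras gene. Lin28a, Prdm14 and Eras had their lowest value in treated p53+/+ cells, Eras at 62.5 (untreated) and 15.1 FPKM (treated) in p53+/+ and 42.5 and 36.9 FPKM in p53-/- cells. Rps15a-ps4 and Zfp982 had their highest in treated p53-/- cells, where Zfp982 stood at 10.3 FPKM. Rps15a-ps4 is a copy of another gene, so its values are uncertain. Zfp982 is listed from 146549975 to 146887529 on chromosome 4, and how surely reads were assigned to it was not tested. On the lower side the opposite genes were Fosl1 (-3.20 and 0.75), Sbsn (-3.01 and 0.88), Ssc5d (-2.81 and 0.51), Parp10 (-2.51 and 0.70) and Serpine2 (-2.17 and 0.96). Each of these 5 was highest in treated p53+/+ cells, with the suprabasin gene Sbsn at 0.934 (untreated) and 34.1 FPKM (treated) in p53+/+ and 2.56 and 3.36 FPKM in p53-/- cells, Parp10 at 17.2 FPKM there and the protease inhibitor gene Serpine2 at 91.4 FPKM.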

How the results depend on the processing

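No paired analysis was possible because each group has 1 library. Against 875 higher and 1697 lower genes, a pseudocount of 5 FPKM gave 336 and 795, a step of 1.5-fold 2295 and 3045, a step of 4-fold 106 and 495, and single-transcript genes within their own bounds, which are fewer genes, 507 and 1053. The p53 list members lower went from 55 to 35 at a 4-fold step. The share of called genes already different without treatment (31.5% of higher and 15.5% of lower) was 37.7% and 26.7% with a pseudocount of 0.1 FPKM, 28.1% and 18.8% with a filter of 5 FPKM, 57.5% and 34.4% with a 1.5-fold step in the untreated pair, and 10.4% for lower genes with a pseudocount of 5 FPKM. The medians of chromosomes 8 and 11 were 0.44 and 0.41 with a filter of 5 FPKM. With at most 1 mismatch, 0.592% of lower, 0% of higher and 0.116% of all compared promoters held an element. The blood and endothelium median of -1.18 became 0.12 with no filter, where members near 0 enter. List counts moved by more than 1.5 times, or to or from 0, in 141 of 952 cases, 87 of them under the steps of 1.5-fold and 4-fold and 36 under the other pseudocounts. At a pseudocount of 5 FPKM the higher members went from 8 to 5 for epiblast and neural genes and from 5 to 2 for trophoblast markers, and at 0.1 FPKM 2 epiblast and neural genes were lower in place of 0. A pseudocount of 0.1 FPKM moved the medians to -3.14 for Wnt ligands, 4.74 for fibroblast markers, -1.96 for primitive endoderm and 1.49 for mesendoderm. Of 261 named genes, 211 kept their direction and side of the step in every alternative run on them. Depth sets the precision of low genes, and the spread between cultures was not measured.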

Other observations

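Some genes were close to silent in one treated genotype and clearly present in the other. At 0.1 FPKM or less in p53+/+ and 5 FPKM or more in p53-/- cells there were 14 genes, and 19 the other way round. These counts did not require status OK. Inpp5d, one of the 14, lacked it, and its 0 in treated p53+/+ cells, against 25.4 FPKM in untreated ones, is uncertain. Beside matrix genes, the 14 included Inhba, an activin subunit gene, at 0 (untreated) and 0 FPKM (treated) in p53+/+ and 16.2 and 12.7 FPKM in p53-/- cells, the caveolin gene Cav1 at 0.0468 and 0.0970 against 6.59 and 7.63 FPKM, the chemokine gene Ccl2 at 0.238 and 0 against 3.96 and 6.47 FPKM and Tm4sf1 at 0.0213 and 0.0661 against 5.16 and 6.26 FPKM. These 4 were present in both p53-/- libraries. The 19 included Casp14, a caspase of the epidermis, at 0.153 and 8.96 against 0 and 0.0205 FPKM, the leukocyte integrin gene Itgb2 at 0.0545 and 5.68 against 0.0543 and 0.0985 FPKM, the hair-cell factor gene Pou4f3 at 0.306 and 10.1 against 0.0503 and 0 FPKM, Cyyr1 at 0.811 and 14.7 against 0.0262 and 0.0477 FPKM and Plcd4 at 0.352 and 9.41 against 0.0190 and 0.0172 FPKM. In these 5 genes the treated p53+/+ library alone exceeded 5 FPKM. The genes were chosen after their values were seen, except Ccl2.

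Transcript use also differed in places. Of 1222 genes with several transcripts and at least 10 FPKM in both treated libraries, 93 had a transcript whose share of the gene differed by 25 percentage points or more, 10 of them by 50 or more, and 9 of the 93 also differed that way in the untreated pair. The splicing factor gene Srsf3 gave 4.16% of its FPKM to one transcript in p53+/+ and 57.5% in p53-/- cells, and Rbpj, the Notch pathway factor gene, gave 38.8% and 90.6% to one of its transcripts. Both were chosen after their values were seen, and assignment of reads to transcripts is uncertain where these share most exons. For 47 of 3035 genes with several transcripts the main transcript passed a difference of 1 while the sum stayed within 0.5.

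The Y-linked genes Eif2s3y (30.1 against 34.4 FPKM after treatment) and Ddx3y (6.66 against 7.73 FPKM) were present in both treated genotypes, while Kdm5d was at 0.0276 and 0.0286 against 1.46 and 1.23 FPKM and Zfy1 at 0.428 and 0.240 against 1.62 and 1.62 FPKM, each higher in both p53-/- libraries.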
